A study of Mus musculus with 6 samples.

Results

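The S100 calcium-binding proteins are a family of small proteins, and 10 of their genes were followed here among 50600 mouse gene identifiers, chosen by gene symbol. The genes were split, from general knowledge of where they are made, into 7 epithelial members (S100a1, S100a6, S100a10, S100a11, S100a13, S100a14 and S100a16) and 3 myeloid members (S100a8, S100a9 and S100a4, the last made by leukocytes and fibroblasts). Polyadenylated RNA came from primary cortical thymic epithelial cells (cTECs) of mice 8 to 10 weeks old. Of 6 libraries, 3 came from mice of the strain B6.B6CB-Psmb11tm1Smta without the gene (Psmb11-/-, here KO, replicates A to C) and 3 from the same strain with it (Psmb11+/+, here WT, replicates A to C). Psmb11 encodes β5t, a catalytic proteasome subunit of cTECs, and the comparison asks which genes differ without it. The labels give neither the sort gate nor whether replicates were separate mice or pools, so p-values measure only the spread between these samples. Values of single libraries are always given in the order A, B, C.

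An S100 protein folds around a pair of EF-hands, loops that hold calcium ions, and usually works as a dimer that grips a target protein once calcium is bound. S100a10 is the exception, held in its active shape without calcium and paired with annexin Anxa2 at membranes. Epithelia make many members inside the cell, whereas S100a8 and S100a9 together form calprotectin, the metal-binding protein that neutrophils and monocytes hold in bulk. Most of the genes lie side by side on mouse chromosome 3, next to genes of the outer skin layer.

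Gene counts per library were 34265035 to 36713388 in KO and 34660349 to 39224292 in WT. Psmb11 had 36 to 67 counts in KO and 8293 to 10027 in WT. As a check of the cell label, 10 cortical epithelial markers other than Psmb11 summed to 5942 to 6657 CPM (gene counts scaled to library size) in KO libraries and to 9226 to 9388 CPM in those of WT, and 12 medullary epithelial markers to 5399 to 5794 CPM and 4020 to 4590 CPM. Krt5, Ccl21a and Krt14, with WT means of 2479, 1123 and 621 CPM, made up most of the medullary sum, and Aire had 3.05 CPM. Krt18, Prss16 and Krt8 were the largest in the cortical sum, at 2096, 1736 and 1633 CPM in WT. With the quasi-likelihood test of edgeR, 23.0% of 16938 genes tested were called, 12.3% higher in KO and 10.7% lower. A call means a p below 0.05 after Benjamini-Hochberg adjustment across all tested genes.

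Levels of different genes were compared on the deposited TPM (a share of all transcripts, corrected for gene length). S100a11, which binds annexin Anxa1, stood first, at 2565 ± 56.6 TPM in WT and 2461 ± 107 TPM in KO (SD, n = 3 each, as throughout). In WT it was followed by S100a10 with 819 ± 28.6 TPM and S100a6 with 544 ± 13.1 TPM, and the libraries of these neighbours did not overlap. In KO the order was S100a6 with 785 ± 83.8 TPM and S100a10 with 760.3 ± 29.2 TPM, and here their libraries did overlap. S100a1 and S100a16 came next in both genotypes, at 363 ± 8.66 and 274 ± 5.30 TPM in WT and at 316 ± 12.7 and 254 ± 6.98 TPM in KO. S100a14 and S100a13 lay lower: 100.2 ± 7.64 and 88.6 ± 1.18 TPM in WT, 105 ± 10.1 and 80.2 ± 4.84 TPM in KO. All these neighbours were apart in every library of a genotype. The myeloid members were at the bottom, with S100a4 at 11.5 ± 0.729 TPM in WT and 19.6 ± 2.53 TPM in KO, and S100a9 and S100a8 at a mean of 1.6 TPM or less in either genotype, where they overlapped each other.

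**Figure D1:**
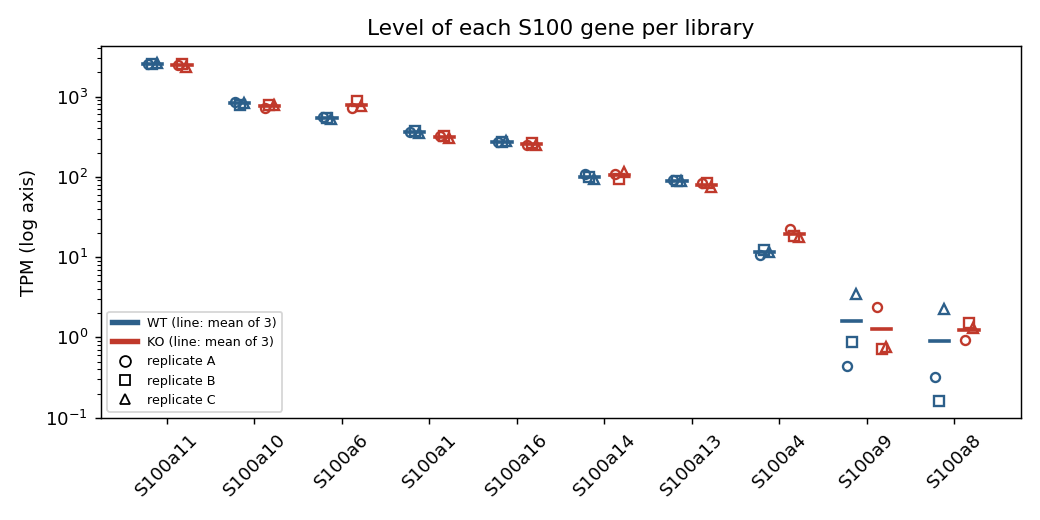
TPM of the 10 S100 genes on a log axis, one open symbol per library (circle, square and triangle for replicates A, B and C) and a line at the mean of 3 libraries, WT in blue and KO in red. S100a11 stands above all others, S100a6 is above S100a10 in mean TPM only in KO, and S100a8 and S100a9 scatter at about 1 TPM.

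The 10 genes together took 0.469% to 0.481% of all TPM in WT and 0.464% to 0.50% in KO, so the sum overlapped between genotypes. Within that sum S100a6 held 11% to 11.6% in WT and 15.2% to 17.6% in KO. S100a11 held 53.2% to 54.6% in WT and 50.6% to 52.6% in KO. Shares of a sum are tied, so a larger share of S100a6 lowers those of the others. The lower share of S100a11 is therefore not a separate difference. Its TPM overlapped between genotypes, at 2345 to 2557 in KO and 2516 to 2627 in WT. The share of S100a6 thus differed between genotypes in every library, while the family total did not separate them.

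All 7 epithelial members passed the filter on low counts, and no myeloid member did. Of the 7, S100a6 rose, S100a1, S100a16, S100a10 and S100a11 fell, and S100a13 and S100a14 were not called, beside 23.0% of all genes called, 12.3% higher and 10.7% lower. The 4 falls were not equally firm: 2 members were called lower without KO replicate A or WT replicate A, and 1 without WT replicate C. Every one of the 7 had a mean above 20 CPM in both genotypes. A mean of at least 20 CPM over all 6 libraries, a limit set after the values were seen, was reached by 8234 genes. Of these, 11.3% were called higher and 18.4% lower. The median log2 fold change of the 7 was -0.13, against -0.00 over all genes tested. The CPM of KO and WT did not overlap for 6 of the 7, beside 39.3% of all genes tested. KO lay above for 1 of them (19.2% of all genes) and below for 5 (20.1%).

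S100a6, or calcyclin, is made by growing epithelial cells and fibroblasts and binds the ubiquitin ligase adaptor Cacybp. KO libraries gave 175, 216 and 187 CPM, against 147, 138 and 136 CPM for WT. Every KO library lay above every WT library, and KO replicate B was the highest. The mean was 1.37-fold higher without Psmb11, 192 ± 20.9 against 140.1 ± 6.14 CPM (log2 fold change 0.46, SE 0.06, edgeR adjusted p = 3.35e-04). Of all 16938 genes tested, 12.4% had a log2 fold change as high or higher, and of the same 8234 genes 2.03%. Leaving out one library at a time gave log2 fold changes of 0.37 to 0.52, each called, and no tool or scaling tried ended the call.

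S100a6 was also set against other members as ratios of raw counts inside a library, which no scaling between libraries can move. S100a6 had 0.814, 0.935 and 0.813 counts per S100a10 count in the KO replicates and 0.569, 0.585 and 0.545 in the WT replicates. Against S100a1 it had 1.81, 2.23 and 2.06 counts in KO, and 1.24 to 1.3 in the WT libraries. Its ratios to S100a11, S100a14 and S100a16 also did not overlap between genotypes. For S100a1, S100a10, S100a11 and S100a16 this follows from the CPM: KO lay wholly above WT for S100a6 and wholly below for them. There the ratios are no separate support, and the ratio to S100a14 rests on the same S100a6 counts. Without S100a6, the ratios S100a1/S100a10, S100a16/S100a14 and S100a10/S100a14 overlapped, while S100a1/S100a14 and S100a13/S100a1 did not. A ratio shows that the genes changed unequally, not which of them moved.

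The bases ahead of the S100a6 start are shown because it was the member that rose on counts. They come from RefSeq (build GRCm38.p6), chr3:90612644-90612893, plus strand, and end at the base before the RefSeq start (the GENCODE M21 gene begins slightly earlier, at 90612882). Capitals mark the only match to the motifs searched, a loose NF-kappaB form (GGG and CC with any 5 bases between).
S100a6 upstream: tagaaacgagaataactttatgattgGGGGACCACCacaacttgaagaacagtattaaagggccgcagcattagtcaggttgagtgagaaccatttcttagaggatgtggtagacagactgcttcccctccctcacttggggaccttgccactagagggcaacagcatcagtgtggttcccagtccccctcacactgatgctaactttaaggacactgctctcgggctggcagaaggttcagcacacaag

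S100a1, best known from heart and skeletal muscle, where it binds ryanodine receptors, showed the firmest fall. KO libraries gave 96.4, 96.7 and 90.9 CPM, against 113, 111 and 108 CPM for WT. No KO library reached the lowest WT library. Its level was 1.17-fold lower in KO, 94.7 ± 3.26 against 110.7 ± 2.28 CPM (log2 fold change -0.23, SE 0.04, edgeR adjusted p = 0.00113). It was called under every alternative, with log2 fold changes of -0.24 to -0.20.

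S100a13, the neighbour of S100a1 on the opposite strand, takes part in the release of Fgf1 and Il1a, growth factor and cytokine that leave cells without a signal peptide. KO libraries gave 29.7, 29.8 and 26.5 CPM, against 32.2, 31.0 and 31.1 CPM for WT. The groups did not overlap, KO replicate C was the lowest, and the gene was not called (log2 fold change -0.13, SE 0.06, edgeR adjusted p = 0.112). On RSEM expected counts it was called lower (log2 fold change -0.17, edgeR adjusted p = 0.0489; 10.2% of genes were called lower there). Fgf1 was not called (159 CPM in WT and 156 CPM in KO), and Il1a had 0 to 4 counts per library.

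The RefSeq starts of this pair lie 104 bases apart, and the bases between them are shown because the pair is read outward from them. In GENCODE M21 the S100a1 gene reaches further, to 90514392, so part of this stretch lies inside it. They come from RefSeq (GRCm38.p6), chr3:90514331-90514434, printed on the plus strand, on which S100a13 is read to the right and S100a1, on the minus strand, to the left. Capitals mark the only match lying wholly between them, again to the NF-kappaB form; another spans the S100a1 start.
between S100a1 and S100a13: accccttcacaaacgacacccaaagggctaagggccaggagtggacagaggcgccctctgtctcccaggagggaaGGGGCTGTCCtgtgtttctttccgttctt

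Promoter windows of 300 bases (250 before the start and 50 after) from RefSeq matched 8 of the 10 genes, in 9 windows; S100a10 and S100a14 had no entry. On either strand the AP-1 motif TGANTCA was in 2 of the 9, a window of S100a16 and that of S100a11, against 7.81% of 32851 windows of all genes. The C/EBP motif TTGCNNAA was in 1, that of S100a9, against 10.8%. The loose NF-kappaB form was in 7, against 50.8%. The windows of S100a1 and S100a13 overlap and share their matches. A match describes letters only.

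S100a16 and S100a14 were both placed among the epithelial members. S100a16 libraries of KO gave 138, 142 and 139 CPM, against 155, 151 and 157 CPM for WT. The groups were well apart, and the gene was 1.11-fold lower in KO (log2 fold change -0.14, SE 0.03, edgeR adjusted p = 0.00909). This call was lost without WT replicate C (adjusted p = 0.0515) and with limma on TPM, where the log2 fold change was -0.11. S100a14 libraries of KO gave 46.4, 43.9 and 48.3 CPM, against 49.1, 45.2 and 41.9 CPM for WT. Its groups overlapped, and it was not called (log2 fold change 0.03, SE 0.06, edgeR adjusted p = 0.791).

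S100a10 and S100a11, the annexin-binding members, fell by small amounts. For S100a10, KO libraries gave 215, 230.5 and 230.5 CPM, against 259, 235 and 248.6 CPM for WT. The groups did not overlap, though the nearest KO and WT libraries were close. It was 1.10-fold lower (log2 fold change -0.14, SE 0.04, edgeR adjusted p = 0.0384). It was not called without KO replicate A (adjusted p = 0.118), KO replicate B (0.0516), WT replicate A (0.154) or WT replicate C (0.107). It was also lost with upper quartile scaling, a filter at 5 CPM and limma on TPM.

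For S100a11, KO libraries gave 324, 331 and 309 CPM, against 353, 336 and 358 CPM for WT. The groups did not overlap on counts, with a 1.09-fold lower level in KO (log2 fold change -0.12, SE 0.04, edgeR adjusted p = 0.0411). On RSEM expected counts, which also share out reads that map to several genes, the groups overlapped and the gene was not called (log2 fold change -0.09, edgeR adjusted p = 0.147). Of 462 distinct stretches of 50 bases in its GENCODE M21 transcripts, 190 (41.1%) also stood in transcripts of other genes, all of them in that of Gm12854. Its expected counts were 1.46 to 1.47 times its counts in KO and 1.43 to 1.44 times in WT. The call was also lost without KO replicate A (adjusted p = 0.0561), KO replicate C (0.118), WT replicate A (0.118) or WT replicate C (0.156), with upper quartile scaling, with a filter at 5 CPM and with limma on TPM.

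**Figure D2:**
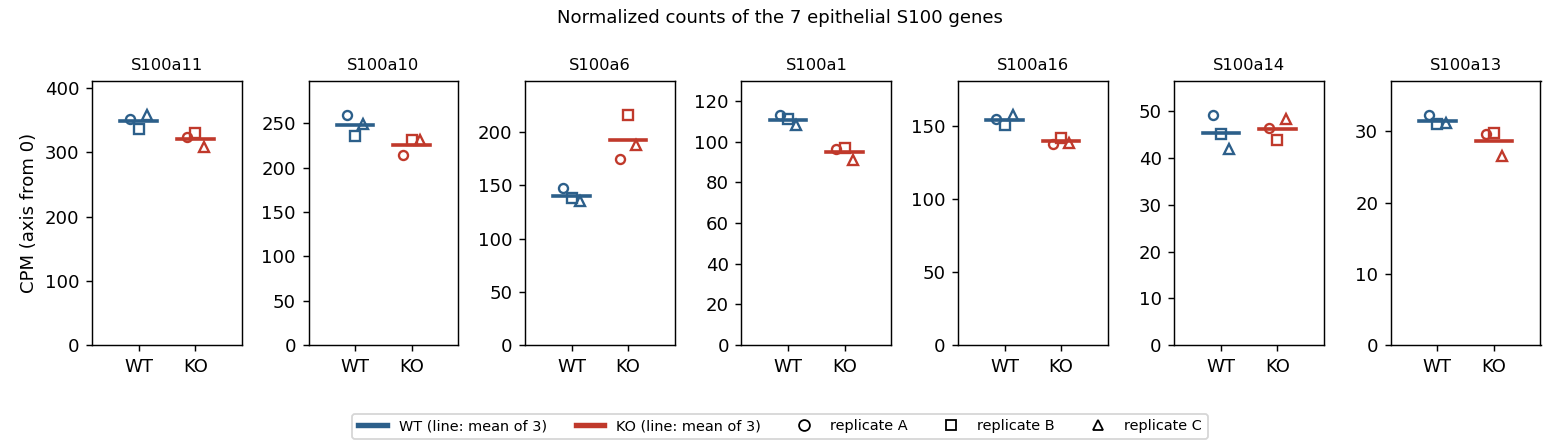
CPM of the 7 epithelial S100 genes, each on its own axis from 0, with one symbol per library and a line at the mean of 3 libraries (WT blue, KO red). S100a6 is higher in all KO libraries, S100a14 overlaps, and the other 5 are lower in all KO libraries by small amounts.

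S100a4, also called fibroblast-specific protein, binds non-muscle myosin and is made by fibroblasts, T cells and macrophages. KO libraries held 4, 11 and 3 counts, against 0, 5 and 2 for WT, too few to be tested. RSEM gave 153, 120 and 113 expected reads in KO and 70, 75 and 80 in WT. The counts overlapped between genotypes, whereas the lowest expected value in KO was above the highest in WT. Scaled to library size the KO mean was 1.74-fold higher, 3.64 ± 0.501 against 2.09 ± 0.0299 CPM (log2 fold change 0.80, SE 0.17, edgeR adjusted p = 0.00601). On expected counts 11.5% of genes tested were called higher. The call held without each library in turn, with log2 fold changes of 0.68 to 0.86, and with DESeq2 and limma.

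S100a4 is the only one of the 10 whose exons share bases with another gene of the same strand in GENCODE M21. Gm42674 covers 302 of its 584 exon bases, and 253 of its 534 distinct stretches of 50 bases stand in that transcript. Gm42674 itself had 0 counts and 0 expected reads in all 6 libraries. How far this overlap set the low counts of S100a4 was not tested.

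**Figure D3:**
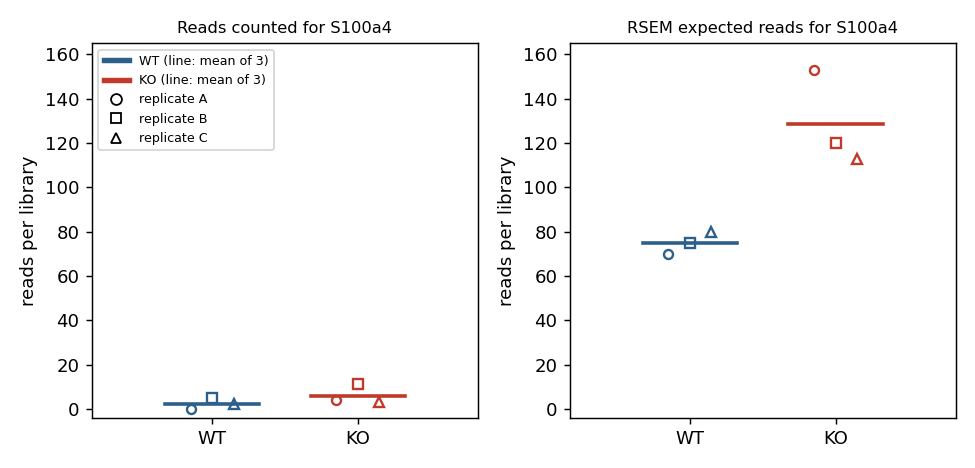
Reads assigned to S100a4 per library in the gene counts (left) and in the RSEM expected counts (right), on one scale, with a line at the mean of 3 libraries. The counts are 0 to 11 in every library, and the expected reads are 70 to 80 in WT and 113 to 153 in KO.

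S100a8 and S100a9, the calprotectin pair, were close to absent. For S100a8, KO libraries held 6, 10 and 8 counts, against 2, 1 and 16 for WT. For S100a9, KO libraries held 17, 5 and 5 counts, against 6, 6 and 28 for WT. WT replicate C was the highest library for both, and the genotypes overlapped. A difference between genotypes was not detectable at this depth.

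Markers of other cells were set beside these values. Of 16 neutrophil markers Cxcr1 and Fpr1 had 0 counts in all libraries, and Ly6g had 0 to 3. The granule gene Ngp had 32 counts in WT replicate C and 0 or 1 in the other libraries. Mmp9, Ltf and Lcn2 made up 98% to 98.9% of the summed neutrophil list, Mmp9 alone 46.7% to 67.9%. The list summed to 182 to 206 CPM in KO libraries, against 149 to 164.6 CPM for WT. Lactoferrin (Ltf, 49.5 CPM in KO against 22.7 CPM in WT) and Lcn2 (43.0 and 30.5 CPM), which epithelia also make, were called higher. The other 3 of the 5 tested were not called, beside 12.3% of all genes called higher and 10.7% lower.

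Macrophage and dendritic cell markers summed to 79.3 to 86.8 CPM in KO libraries, against 44.8 to 50.6 CPM for WT, with 8 of 17 tested called higher and 0 lower. Of those 8, Adgre1, Itgax and Flt3 reached the low count limit (0.274 CPM in 3 libraries) in all KO but not all WT libraries, so the filter favoured their direction. Fibroblast markers summed to 1018 to 1129 CPM in KO libraries, against 723 to 830.0 CPM for WT. Of the 8, 6 were called higher and 0 lower, beside 12.3% and 10.7% of all genes. Dcn alone had a mean of 777 CPM in KO and 607 CPM in WT. Pdgfra and Pdgfrb were the 2 not called (edgeR adjusted p = 0.884 and 0.720). Medullary epithelial markers had 9 of 11 and tuft cell markers 7 of 8 called higher, with 0 lower in each (6 of 11 and 6 of 8 with a robust prior in the same test). These lists moved in the same direction as S100a6 and S100a4, and their part in those differences was not tested. In whole-population RNA a larger share of such cells and more RNA per cell cannot be told apart. Of 10 cortical epithelial markers, leaving out the deleted Psmb11, 9 fell and Epcam rose, the direction of the falls being that of S100a1, S100a16, S100a10 and S100a11; this too was not tested. Thymocyte markers (0 of 9 called; 2 at an unadjusted p below 0.05) and endothelial markers (0 of 5; 0 at an unadjusted p below 0.05) were not called with edgeR. KO replicate A was the highest library of both lists, at 95.1 CPM for thymocyte markers (56.8 to 68.7 CPM in the others) and 40.5 CPM for endothelial markers (11.8 to 31.6 CPM). It was also the highest in expected reads of S100a4 and, among KO libraries, in counts of S100a9. Without it S100a4 kept its call (log2 fold change 0.68, edgeR adjusted p = 0.0251). Macrophage and fibroblast sums were above WT in every KO library, so leaving out a library does not test the part of such cells.

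Partners of S100 proteins split in both directions. Of 30 tested partner and receptor genes 9 rose and 6 fell, beside 12.3% and 10.7% of all genes, and the median log2 fold change was 0.03. Mcam, an adhesion molecule that serves as a receptor for S100a8 and S100a9, gave 25.5, 22.9 and 24.0 CPM in KO libraries, against 11.4, 11.3 and 11.3 CPM for WT. It was 2.13-fold higher with no overlap (edgeR adjusted p = 1.73e-06). Alcam, another such receptor, was 1.18-fold lower, from 459 to 388 CPM (edgeR adjusted p = 2.32e-04). Ager, the receptor for many secreted members, was not called, at 5.77 CPM in WT and 4.99 CPM in KO, while Tlr4, a receptor of calprotectin, rose 1.14-fold.

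Among intracellular partners, Dysf, a membrane repair protein that binds the S100a10 complex, was 1.74-fold lower. Syt1, the vesicle protein found with S100a13 and Fgf1, was 1.92-fold higher, from 5.05 ± 0.468 to 9.71 ± 1.48 CPM, and this call was lost with limma on TPM. The calcium channel Trpv6, brought to the membrane by S100a10, was 3.81-fold higher at a low level, 0.320 CPM in WT and 1.22 CPM in KO, and passed the low count filter only through the KO libraries. Ahnak, a giant scaffold bound by S100a10 and Anxa2, was 1.14-fold higher. Cacybp, the partner of S100a6, was not called, at 48.9 CPM in WT and 46.9 CPM in KO.

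Of 11 tested annexins 2 rose and 1 fell, shares near the 12.3% and 10.7% of all genes, with a median log2 fold change of 0.02. Anxa1, the partner of S100a11, was 1.24-fold higher, from 539 ± 26.0 to 670 ± 21.8 CPM. Anxa6 fell 1.27-fold, from 320.1 ± 11.9 to 252 ± 6.38 CPM. Anxa3 was 1.98-fold higher, from 22.7 ± 2.62 to 45 ± 2.06 CPM. Anxa2, the partner of S100a10, had 1011 CPM in WT and 1028 CPM in KO and was not called. Thus S100a11 and Anxa1 were called in opposite directions, and S100a10 was called lower without a call for Anxa2. The call of S100a11 was lost under 10 of 17 alternatives and that of S100a10 under 9, so these contrasts are weak.

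**Figure D4:**
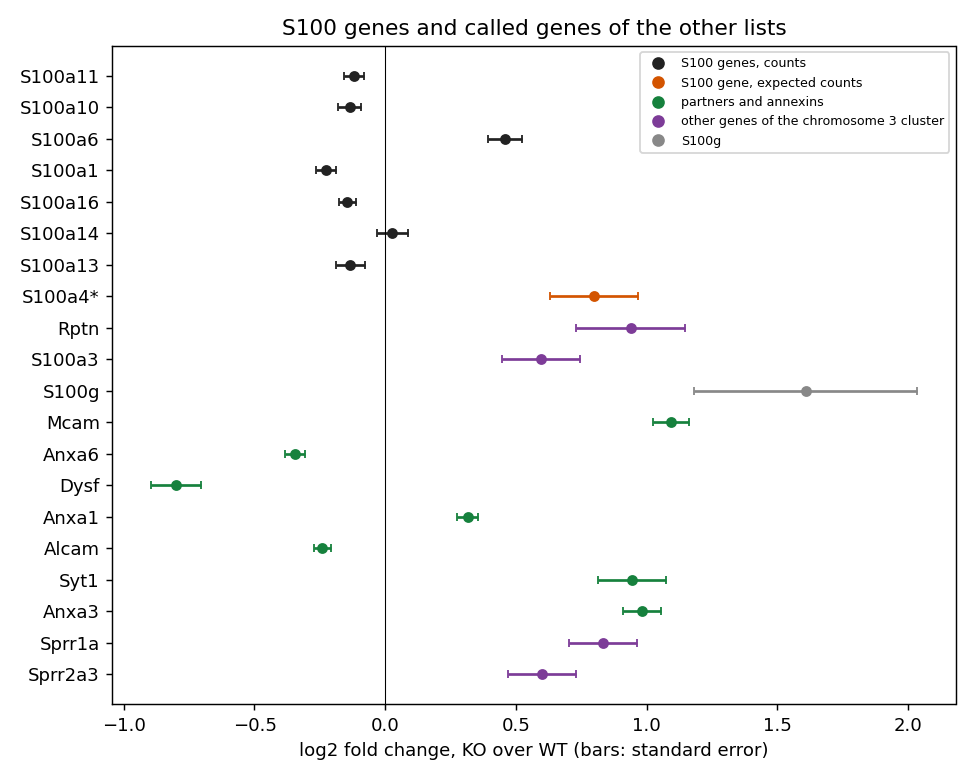
Log2 fold change, KO over WT, with its standard error, for the 7 epithelial S100 genes (black), S100a4 on RSEM expected counts (orange, marked with an asterisk) and the genes named from the other lists (green, purple and grey). The S100 genes called lower lie between -0.23 and -0.12, and S100a6, S100a4, Mcam and Anxa3 lie well above 0.

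All 10 members lie on chromosome 3 (GENCODE M21, GRCm38), in a block of 8 genes and a pair farther along. S100a1 (90511034 to 90514392, minus strand) opens the block, followed on the plus strand by S100a13 (from 90514435), S100a14 (from 90526856), S100a16 (from 90537254), S100a4 (from 90603771) and S100a6 (90612882 to 90624181). S100a8 (90668978 to 90670035, plus) and S100a9 (90692632 to 90695721, minus) close it. S100a11 (93520488 to 93526287) and S100a10 (93555080 to 93564643) are side by side on the plus strand. The first 4 genes of the block had log2 fold changes of -0.23 to 0.03, while S100a4 on expected counts and S100a6, its neighbours downstream, had 0.80 and 0.46.

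Of 13 other S100 genes listed, fused S100 proteins of the skin included, 12 were in the files and 5 were tested. Of these 3 rose and 0 fell, beside 12.3% and 10.7% of all genes, and S100a7a and Tchh were not called. S100a3, a member of the hair cuticle that lies between S100a16 and S100a4, gave 4.68, 4.64 and 3.89 CPM in KO libraries, against 3.28, 2.62 and 2.86 CPM for WT. It was 1.51-fold higher (edgeR adjusted p = 0.0126), but not called without WT replicate B (adjusted p = 0.0614) or C (0.0536) or with limma on TPM. S100g, the vitamin D-dependent calcium carrier calbindin-D9k on chromosome X, held 33, 33 and 22 counts in KO libraries, against 3, 14 and 12 for WT. It was 3.10-fold higher (edgeR adjusted p = 0.0169), but not called without WT replicate A (adjusted p = 0.0545) or KO replicate B (0.0526) or with limma on TPM. S100g passed the low count filter only through the KO libraries, which favoured this direction.

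Of 107 genes between S100a1 and S100a10 that are not S100 genes by name, 11 were tested. Of these 3 rose and 0 fell, beside 12.3% and 10.7% of all genes. On RSEM expected counts 5 of 13 tested rose, beside 11.5% of all genes tested there. The rises were Sprr1a (1.78-fold) and Sprr2a3 (1.51-fold), small proline-rich proteins of the cornified envelope, and Rptn (1.91-fold), a fused S100 protein of the same layer that is also counted among the other S100 genes above. Sprr2a3 belongs to a set of near-identical copies, so its reads may be split among them. Rptn was not called with limma on TPM. Tchh, another fused S100 protein, ranged over 62.6 to 64.3 CPM in KO libraries and 56.7 to 68.2 CPM in those of WT and was not called.

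**Figure D5:**
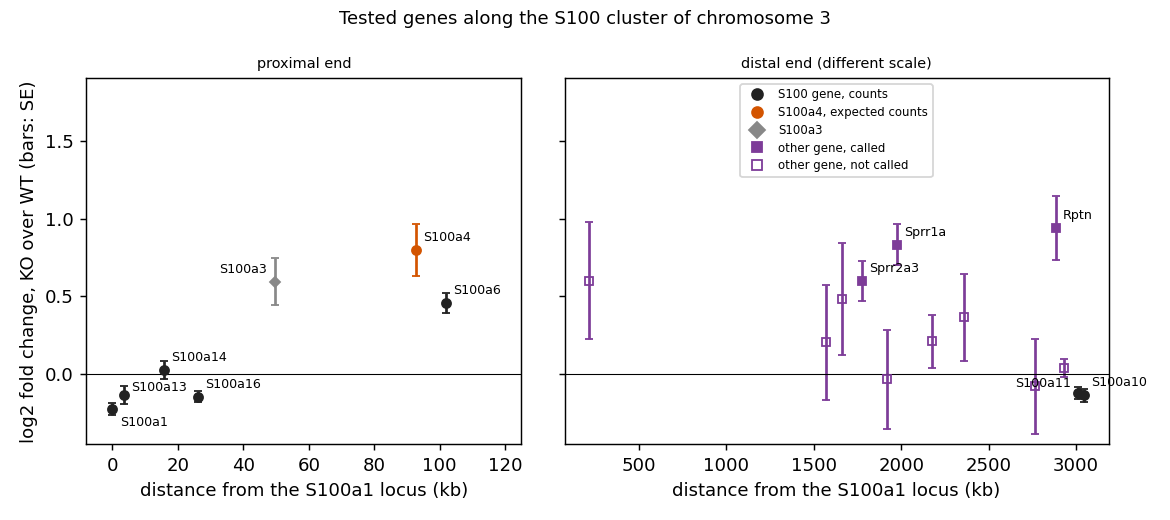
Log2 fold change, KO over WT, with its standard error, of tested genes against distance in kilobases from the S100a1 locus; the panels have different horizontal scales. Black circles are S100 genes on counts, the orange circle S100a4 on expected counts, the grey diamond S100a3, and purple squares other genes (filled where called). S100a1, S100a13, S100a14 and S100a16 lie near or below 0, and S100a3, S100a4 and S100a6 above it.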

How the data were processed

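Per the submitters' processing notes, reads passed through bcl2fastq 2.17, STAR 2.5.1b and RSEM 1.2.28; the notes name a human build, so the build used for alignment is not given in the sources used here. The deposited counts are raw reads per gene, with columns for both strands; the column for the opposite strand, holding 95.5% to 95.7% of the stranded gene counts, was used. Unassigned reads (18.4% to 19.8%) were left out. The authors also deposited RSEM expected counts (estimated reads, rounded here) and TPM. Of 50600 identifiers, 99.56% matched GENCODE M21 (GRCm38) without version.

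Counts were tested with edgeR 4.0.16 (filterByExpr, TMM, glmQLFit and glmQLFTest with the default prior, no block) in R 4.3.3, and the SE was derived from the F statistic. The test was checked on simulated data with a common spread for all genes and larger fold changes than the falls of the S100 members. That check does not show how well changes of their size are found. Members and lists were chosen with earlier results of these data known. Named genes were the members and, from each list except cell markers, up to 6 called genes by p (1 of them is not reported here); further genes are examples chosen after their values were seen. Alternatives were RLE and upper quartile scaling, DESeq2 1.42.0, other filters, expected counts, unstranded counts, limma 3.58.1 on log2(TPM + 1) and log2(TPM + 0.1), a replicate block and leaving out each library. A fit with a robust prior was chosen after seeing the data: 8 combinations of robust options and library size settings were run to find the one that gave the number of calls of earlier processing of this series, and it is kept as an alternative only. The alternatives for S100a4 on expected counts, the 20 CPM limit, the ratios between members and the overlap checks were also chosen after seeing the data.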

Additional observations from a re-analysis of the deposited data

How the results depend on the processing

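S100a6 and S100a1 kept direction and call under all 17 alternatives, while S100a16 lost its call under 3, S100a10 under 9 and S100a11 under 10. On RSEM expected counts 2 of 8 members tested were called higher, S100a4 being the second. So were 5 of 13 neighbours of the cluster tested there, beside 11.5% of all genes. Members called lower numbered 2 with upper quartile scaling, 2 with a filter at 5 CPM, and 1 with limma on log2(TPM + 1) or log2(TPM + 0.1). Leaving out one library gave 1 to 4, with 1 without WT replicate C. S100a14, not called, changed sign without KO replicate C (log2 fold change -0.0064) or WT replicate C (-0.030), and ranged up to 0.085 with one library left out. Over all genes, limma on log2(TPM + 1) and log2(TPM + 0.1) called 1169 and 1119 higher and 758 and 738 lower. Leaving out one library gave 1477 to 1836 higher and 1152 to 1615 lower, the fewest lower without WT replicate C. The causes were not tested.

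The quasi-likelihood fit with a robust prior, tried while looking for the settings of earlier processing, called 2113 genes higher and 1876 lower, against 2079 and 1820 with the default prior. It called 1 member higher and 4 lower, as the default did, and 6 medullary markers higher in place of 9 and 6 tuft markers in place of 7, with edgeR adjusted p of 0.00473 for S100a6 (3.35e-04 with the default), 0.0244 for S100a10 (0.0384) and 0.0293 for S100a11 (0.0411).

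The replicate letters pair no samples by the labels, and deviations of same-letter libraries correlated at 0.09, 0.18 and -0.06. With the replicate block 1 member was called higher and 2 lower, S100a10 (edgeR adjusted p = 0.0518) and S100a11 (0.0567) not being called. The depth limits S100a8, S100a9 and, on counts, S100a4, which had 28 counts or fewer in each library.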

Other observations

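Other small calcium-binding proteins with EF-hands moved both ways: of 19 tested 3 rose and 7 fell, with a median log2 fold change of -0.03, beside 12.3% and 10.7% over all genes. Calm3, which encodes the calcium sensor calmodulin, fell 1.14-fold, from 216 ± 0.785 to 189.8 ± 1.65 CPM, and the protease Capn1 fell 1.12-fold. The rises were at lower levels: Calml3, a calmodulin-like protein of epithelia, was 1.48-fold higher (5.47 to 8.09 CPM), Efhd1 2.04-fold (1.03 to 2.10 CPM, not called without WT replicate B, edgeR adjusted p = 0.0546), and the muscle and neuron buffer Pvalb 3.76-fold (0.214 to 0.807 CPM). Pvalb passed the low count filter only through the KO libraries, which favoured its direction.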
